A study of Mus musculus with 64 samples.

Results

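Megakaryocyte-erythroid progenitors (MEP) were set against common myeloid progenitors (CMP) from livers of fetuses heterozygous for Smarcd2, which encodes a subunit of the chromatin-remodelling BAF complex. The 12 libraries compared, 6 of each population, are the heterozygous ones that carry the same replicate number in both populations, with number 8 left out of both, and they belong to a series of 64 libraries. Every gene row listed for both populations entered the comparison, 11915 rows, of which 11051 passed the filter on low counts and were tested. The replicate number served as the pair. The fetuses were C57BL/6, genotype Smarcd2 +/-, and untreated as far as the labels say. Age was given as 13/14 days post coitum, except for the CMP library of pair 1, labelled 14.5. Sex was not determined. WT pairs (3) and KO pairs (Smarcd2 -/-; 4), of the same strain and age label, are used below only to ask whether the difference between the populations depended on genotype. Cells were negative for lineage antigens and Sca-1 and positive for CD45 and c-Kit (labelled CD117 in the staining protocol and CD177 in the gate). The MEP gate took cells low for CD34 and for the Fc gamma receptors CD16/32, and the CMP gate took CD34-positive cells with intermediate CD16/32. No label says which fetus or litter a library came from. The p-values below therefore rest on library-to-library variation alone, and part of that may be technical.

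CMP are progenitors that give rise to granulocyte-monocyte progenitors and to MEP. MEP are committed to red cells and platelets. In the fetal liver, which is the main site of red cell formation before birth, GATA1 and KLF1 drive the genes of haemoglobin synthesis and the red cell membrane under the control of erythropoietin. PU.1, encoded by Spi1, and the C/EBP factors drive the genes of granulocytes and monocytes, and GATA1 and PU.1 inhibit each other's activity.

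Reads in listed genes ran from 1488328 to 5646315 in the MEP libraries (median 2870107.5) and from 3696035 to 4943842 in the CMP libraries (median 4113843.5). Spike-in RNA took 0.145 to 0.277% of reads in MEP and 0.102 to 0.164% in CMP. Levels below are CPM, a gene's reads per 1000000 reads of the library in the shared genes after TMM scaling. Each group is given by its lowest, median and highest library, and a log2 fold change is MEP minus CMP, so that positive values are higher in MEP. A gene was called when edgeR's quasi-likelihood test gave a Benjamini-Hochberg adjusted p under 0.05 over all 11051 genes. Replicate 8, titled M33 like pairs 9 and 10, stood apart in both gates: in a scaling of all 14 libraries its MEP library held 1040 CPM of Gata1 and 1230 of Klf1, against 96.7 to 186 and 87.3 to 166 in the other 6, and its CMP library held 1090 CPM of Mpo against 3120 to 3990. With this pair included, 629 genes were higher and 997 lower in MEP.

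Erythroid genes were higher in MEP, granulocyte and monocyte genes were lower, and a set of early B cell genes was higher in every MEP library. In all, 1592 genes (14.4% of those tested) were higher and 1812 (16.4%) lower. Of these, 511 (4.62%) were at least 2-fold higher and 807 (7.3%) at least 2-fold lower. Every MEP library lay above every CMP library for 775 genes (7.01%) and below for 1113 (10.1%). The median log2 fold change over all genes was 0.02. Together 3404 genes passed (30.8%), and 1780 of them (52.3%) also passed in a model that held spike-in content as an added term, which gave 1234 higher and 1302 lower. The spike-in share was higher in the MEP than in the CMP library of every pair, so this term is partly confounded with the gate. What a call lost in this model reflects, here and below, was not tested. The plot of fold change against level shows these genes among all that were tested.

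**Figure D1:**
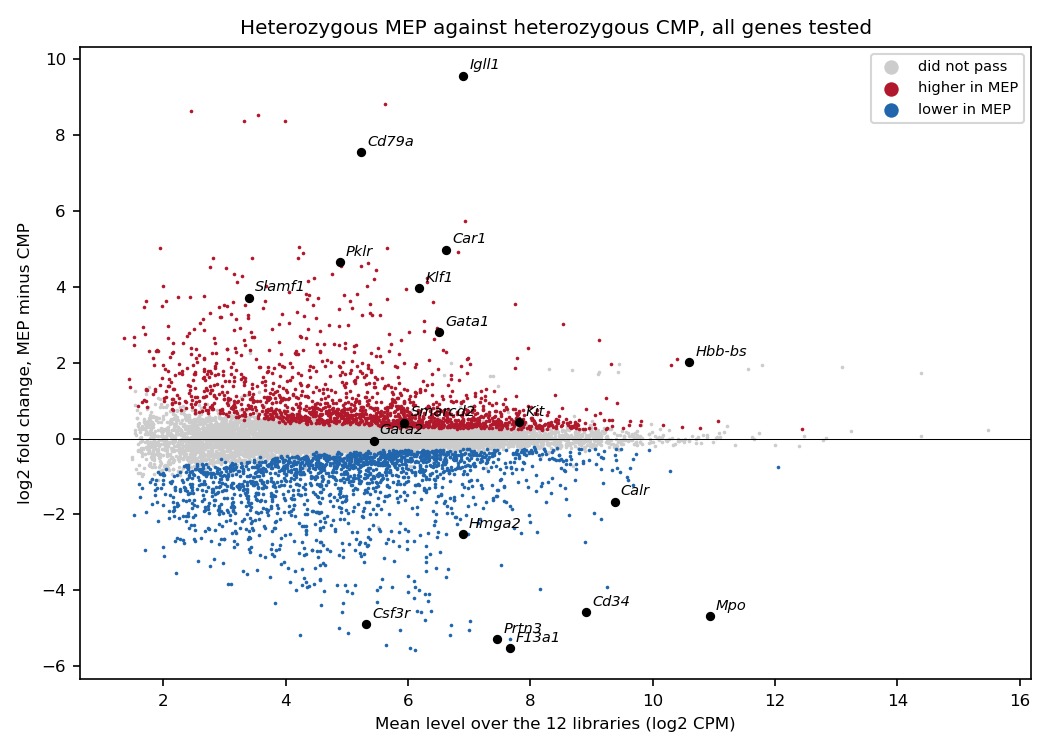
Each point is 1 of the 11051 genes tested in heterozygous MEP against heterozygous CMP; the horizontal axis is the mean level over the 12 libraries (log2 CPM) and the vertical axis the log2 fold change, MEP minus CMP. Red genes were higher in MEP (1592), blue genes lower (1812) and grey genes did not pass; Igll1 at 9.57 and Cd79a at 7.54 are the topmost labelled genes.

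Smarcd2 itself (ENSMUSG00000078619; GRCm38 chromosome 11, 106263179 to 106272972, minus strand) stood at 52.5, 73.0 and 84.3 CPM in MEP and 27.9, 62.1 and 68.1 CPM in CMP. The ranges overlapped, and the call for higher in MEP (log2 fold change 0.42 ± 0.12 (SE), adjusted p 0.0193) was lost in 7 of 18 alternative fits, among them the fit without replicate 9. The 2 antigens on which the gates differ, CD34 and CD16/32, were lower in MEP as RNA too. Cd34 (ENSMUSG00000016494; GRCm38 chromosome 1, 194938819 to 194961279, plus strand), the surface sialomucin of stem and progenitor cells, was at 29.2, 37.6 and 52.6 CPM in MEP and 815, 934 and 967 CPM in CMP. Every CMP library lay far above every MEP library (log2 fold change -4.59 ± 0.13 (SE), adjusted p 5.63e-10). Fcgr3, which encodes CD16, was at 1.57, 4.09 and 18.7 CPM in MEP and 69.2, 75.4 and 106 CPM in CMP, again without overlap (log2 fold change -3.92 ± 0.45 (SE), adjusted p 0.000252). Fcgr2b (-3.33), an inhibitory Fc receptor, Itgam, the integrin Mac1 (-3.50), and Ptprc, which encodes CD45 (-1.95), were lower in MEP as well. Kit, the stem cell factor receptor used in both gates, was at 166, 270.5 and 302 CPM in MEP and 123, 201 and 229.6 CPM in CMP, with overlapping ranges, and did not pass (log2 fold change 0.42 ± 0.16 (SE), adjusted p 0.0693), though it passed in 6 of 18 alternative fits, with values from 0.158 to 1.188. The differences of Cd34 and the Fc receptor genes describe the sort and are no finding. Because whole populations were measured, fewer cells of a type and less RNA per cell cannot be told apart, here and below.

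Of the 18 MEP markers set for checking the labels, all tested, 16 were higher in MEP and 2 were lower, among them Nfe2 (-0.43). Of 16 CMP markers, 14 were tested. Among these are Cd34 and Fcgr3, whose direction the sort itself set. In all, 13 were lower in MEP and none higher. The exception, Elane, which encodes neutrophil elastase, was at 1.22, 8.17 and 65.6 CPM in MEP and 49.99, 60.2 and 103 CPM in CMP and did not pass (log2 fold change -2.33 ± 0.83 (SE), adjusted p 0.089); in 5 of 18 alternative fits, among them DESeq2 and the fit without replicate 4, it passed as lower, and the values ran from -1.4 to -4.476. Cebpa and Gfi1, the other CMP markers, were listed for CMP only. Cebpa, the founder of the C/EBP factors, was at 17.8 to 39.3 CPM (median 25.3) there.

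The transcription factors of the red cell line were higher in MEP. Gata1 (ENSMUSG00000031162; GRCm38 chromosome X, 7959260 to 7978071, minus strand), the central factor of erythroid and megakaryocyte cells, was at 104, 180.5 and 198 CPM in MEP and 17.2, 22.01 and 28.8 CPM in CMP, and the gates did not overlap (log2 fold change 2.81 ± 0.19 (SE), adjusted p 1.02e-06). Klf1, which activates adult globin and membrane genes, was at 93.7, 145 and 180.4 CPM in MEP and 5.55, 8.46 and 14.8 CPM in CMP, again without overlap (log2 fold change 3.96 ± 0.24 (SE), adjusted p 5.61e-07). Gfi1b (2.39), a repressor needed for red cells and platelets, the GATA1 cofactor Zfpm1 (2.35), Tal1 (1.61), E2f2 (2.04), a cell cycle factor of erythroblasts, and Bcl11a (1.55), a silencer of embryonic and fetal globin genes, were also higher. In the list of erythroid factors 14 of 20 members tested were higher and 1, Nfe2, lower (median log2 fold change 0.83). Gata2, which precedes GATA1 in early progenitors, was at 28.8, 41.8 and 53.3 CPM in MEP and 33.6, 40.5 and 58.3 CPM in CMP, with overlapping ranges, and did not pass (log2 fold change -0.06 ± 0.11 (SE), adjusted p 0.74).

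Genes of erythropoietin signalling were higher at the receptor and at some of its targets. Epor, the receptor, was at 32.7, 56.2 and 67.5 CPM in MEP and 3.27, 4.72 and 6.93 CPM in CMP, without overlap (log2 fold change 3.42 ± 0.23 (SE), adjusted p 4.09e-07). Socs2 (log2 fold change 4.13 ± 0.26 (SE), adjusted p 2.22e-07), a feedback inhibitor of cytokine receptors, Podxl (3.87), a sialomucin, and Tfr2 (2.48), which associates with the erythropoietin receptor, were higher as well. Jak2 (0.81), Stat5a (0.56) and Stat5b (0.56) were also higher, and Sh2b3 (-0.87), an adaptor that restrains JAK2, and Lyn (-0.72), a Src family kinase, were lower. In all, 7 of 16 members tested were higher and 2 lower, beside 14.4% and 16.4% over all genes. The lower count lay near its share.

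The promoters of 2 of these genes and of Pklr, the red cell pyruvate kinase described further on, are shown because they hold GATA motifs close to the start site and belong to genes that moved together. Capitals mark the motif, AGATAA in Epor and Pklr and TGATAA in Klf1. In Epor and Klf1 it lies on the strand opposite to the gene, so the capitals read TTATCT and TTATCA. Each window runs from 250 bases before to 50 bases after the RefSeq start site on GRCm38.p6, written 5′ to 3′ on the strand of the gene.
Epor (chr9:21963527-21963826, minus strand): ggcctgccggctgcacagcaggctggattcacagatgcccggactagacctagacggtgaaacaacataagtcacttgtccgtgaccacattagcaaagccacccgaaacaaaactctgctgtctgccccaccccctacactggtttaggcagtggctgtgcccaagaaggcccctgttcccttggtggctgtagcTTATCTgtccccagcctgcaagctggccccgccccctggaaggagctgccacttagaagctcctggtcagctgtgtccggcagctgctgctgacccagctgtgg
Klf1 (chr8:84901732-84902031, plus strand): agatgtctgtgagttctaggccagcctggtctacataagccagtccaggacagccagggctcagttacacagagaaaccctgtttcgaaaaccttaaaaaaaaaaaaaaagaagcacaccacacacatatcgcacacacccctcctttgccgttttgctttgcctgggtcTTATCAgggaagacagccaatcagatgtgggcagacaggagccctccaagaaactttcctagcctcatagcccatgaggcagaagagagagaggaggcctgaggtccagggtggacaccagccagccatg
Pklr (chr3:89135892-89136191, plus strand): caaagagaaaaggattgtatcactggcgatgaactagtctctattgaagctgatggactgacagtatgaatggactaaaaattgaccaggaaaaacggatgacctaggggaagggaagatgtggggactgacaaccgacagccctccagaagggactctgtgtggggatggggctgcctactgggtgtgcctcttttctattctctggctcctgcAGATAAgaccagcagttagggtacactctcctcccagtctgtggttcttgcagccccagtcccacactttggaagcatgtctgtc
Searched on both strands, AGATAA lay in 12.9% of 194 promoters of genes at least 4-fold higher in MEP, in 9.16% of 273 promoters of genes at least 4-fold lower, in 6.4% of 10065 promoters of all genes tested and in 11.2% of all 32851 promoters. For TGATAA, which shares the bases GATAA with it, the shares were 12.4, 6.59, 4.4 and 9.05%. Some genes have several windows. The shares are descriptions of letters in these windows and were not tested.

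Enzymes of haem synthesis were higher along most of the pathway. Cpox, which oxidises coproporphyrinogen in the mitochondrion, was at 327, 408 and 434 CPM in MEP and 18.3, 31.7 and 70.7 CPM in CMP, without overlap (log2 fold change 3.55 ± 0.21 (SE), adjusted p 1.07e-06). Alad (2.29) makes the first pyrrole, Urod (1.67) acts just before Cpox and Fech (1.96) inserts the iron. Alas2, the red cell form of the first enzyme, was higher (log2 fold change 2.18 ± 0.32 (SE), adjusted p 0.000649) with overlapping ranges, and Alas1, the form of other tissues, was lower (log2 fold change -1.67 ± 0.18 (SE), adjusted p 2.65e-05). In this list 15 of 19 members were higher and 2, Alas1 and Hmox2, lower (median 1.08). Blvrb, a flavin and biliverdin reductase abundant in red cells, had the highest value of the list (3.59).

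Iron genes followed. Tfrc, the transferrin receptor, was at 253, 413 and 623 CPM in MEP and 32.7, 85.8 and 135 CPM in CMP, all MEP libraries above all CMP libraries (log2 fold change 2.38 ± 0.31 (SE), adjusted p 0.000729). Steap3 (1.97), which reduces iron in endosomes, Slc11a2 (1.90), which exports it from them, and Slc40a1 (2.38), the iron exporter ferroportin, were higher too. Of 17 members tested 11 were higher and 1, Ncoa4 (-0.46), which delivers ferritin for breakdown, was lower.

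Membrane and carbonic anhydrase genes of red cells had the highest median of the lists, with 23 of 24 members tested higher, none lower and a median of 2.57. Car1, carbonic anhydrase, was at 127, 201 and 259.8 CPM in MEP and 4.08, 5.42 and 8.12 CPM in CMP, and the lowest MEP library exceeded the highest CMP library (log2 fold change 4.98 ± 0.24 (SE), adjusted p 1.09e-07). Rhag, the ammonia channel of the Rh complex, was at 125, 138 and 220.4 CPM in MEP and 2.49, 5.95 and 27.4 CPM in CMP (log2 fold change 4.22 ± 0.52 (SE), adjusted p 0.000704). Ermap (4.92), a red cell adhesion protein, and Mfsd2b (2.84), a sphingosine-1-phosphate exporter, were higher as well. Only Slc2a1, the glucose transporter, did not pass (0.01). Samd14, Cited4, Add2 and Aqp1, a water channel, were listed for MEP only. Add2, beta-adducin, was at 35.6 to 40.0 CPM (median 36.5) there. These 4 were chosen after their values were seen.

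Adult globin RNA was also higher in MEP but varied widely within each gate. Hbb-bs, a beta globin, was at 388, 2671 and 4555 CPM in MEP and 128, 431 and 1442 CPM in CMP, and the gates overlapped (log2 fold change 2.004 ± 0.39 (SE), adjusted p 0.00802). Hba-a1 (2.09), Hba-a2 (1.96) and Hbb-bt (1.93) gave like differences, and the embryonic Hbb-y did not pass (0.81). The near-identical alpha genes, and the beta genes, can share reads, so their split is uncertain. With spike-in content in the model, a term partly confounded with the gate, none of the 4 passed, nor did Alas2 or Rhag. Without replicate 1 Hbb-bs and Hbb-bt did not pass. Summed over the list, globins took 1241 to 13270 CPM in MEP and 420.9 to 4470 in CMP.

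The plot of paired libraries shows that for each of 8 genes with known roles the difference had 1 direction in all 6 pairs and the gates did not overlap. Cd34 among them is an antigen of the sort.

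**Figure D2:**
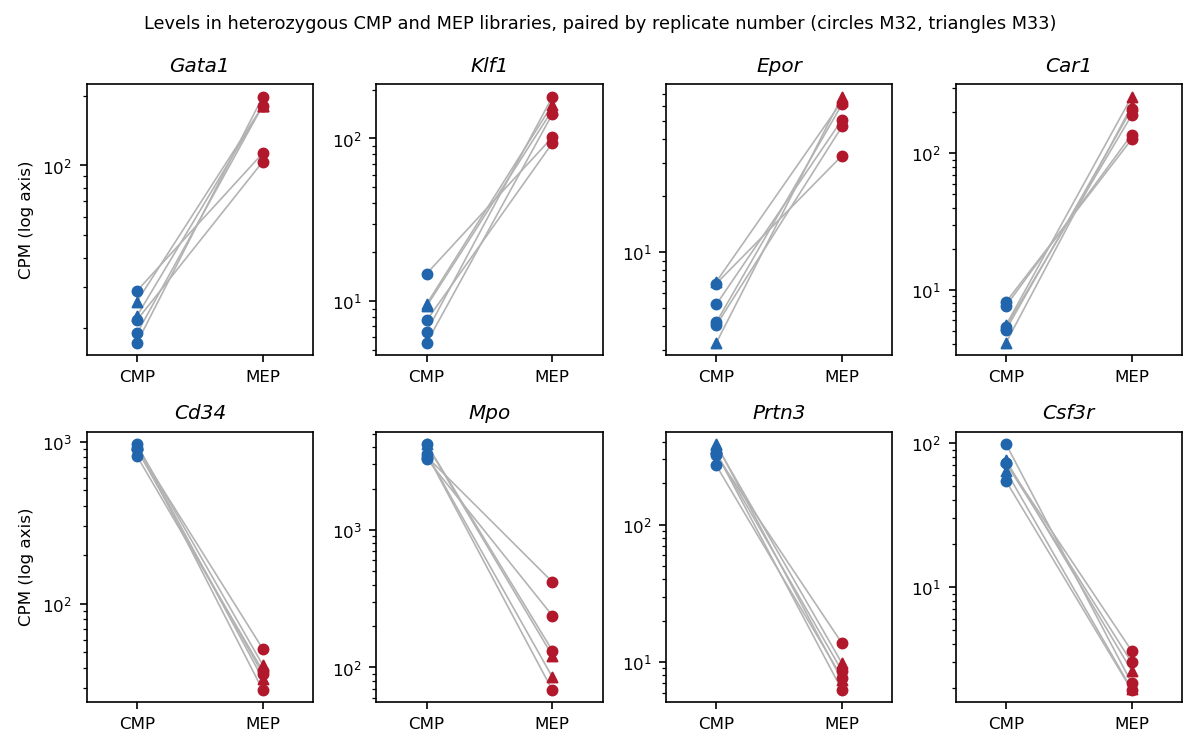
CPM on a log axis in CMP (blue) and MEP (red) libraries; grey lines join libraries with the same replicate number, circles are pairs titled M32 and triangles pairs titled M33. Gata1, Klf1, Epor and Car1 are higher in MEP in 6 of 6 pairs, and Cd34, Mpo, Prtn3 and Csf3r are lower in 6 of 6.

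Other genes of the largest differences in favour of MEP, at a mean of at least 3 on the log2 CPM scale and in all 6 pairs, included the glutamine transporter Slc38a5 (log2 fold change 5.03 ± 0.37 (SE), adjusted p 6.48e-06), the carboxylesterase Ces2g (5.04), the membrane-shaping ATPase Ehd2 (4.76), the sialyltransferase St3gal6 (4.62), the sodium pump subunit Atp1b2 (4.56) and Trp53i11 (4.89). Pklr, pyruvate kinase of red cells and liver, was at 50.5, 57.3 and 68.0 CPM in MEP and 0.408, 1.71 and 4.82 CPM in CMP, with a wide gap between the gates (log2 fold change 4.66 ± 0.32 (SE), adjusted p 1.15e-06). Alpl, alkaline phosphatase, had 330 reads over the MEP libraries and 1 over the CMP libraries, a ratio of 443 (exact 95% counting interval 78.9 to 17500). Reads were amplified without molecular tags, so such intervals cover counting error only.

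Megakaryocyte and platelet genes went both ways, with 10 of 21 members tested higher and 5 lower (median 0.8). The shares over all genes were 14.4% higher and 16.4% lower. Slc14a1, a urea transporter, was at 55.3, 73.7 and 104 CPM in MEP and 5.92, 7.09 and 11.9 CPM in CMP, without overlap (log2 fold change 3.26 ± 0.22 (SE), adjusted p 7.52e-07). Surface glycoproteins and receptors of platelets were among the higher genes, namely Gp5 (2.38), Gp1ba (1.95) and the thrombin receptor F2r (2.07). Pf4, platelet factor 4, was at 36.0, 48.2 and 65.2 CPM in MEP and 7.17, 14.7 and 60.0 CPM in CMP, with overlap (log2 fold change 1.53 ± 0.40 (SE), adjusted p 0.0184). Itgb3 (-1.44), the integrin partner of Itga2b, Fli1 (-1.2), an ETS factor of megakaryocytes, and Plek (-1.73) were lower, and Itga2b was higher (0.67). Pf4 lost its call without replicate 1 and Itga2b without replicates 7, 9 or 10, both also with spike-in content in the model.

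Stem and early progenitor genes were lower for 12 of 22 members tested and higher for 3 (median -0.48). Adgrl4, an adhesion receptor of stem and endothelial cells, was at 5.42, 10.5 and 14.9 CPM in MEP and 80.2, 91.6 and 121 CPM in CMP, without overlap (log2 fold change -3.22 ± 0.18 (SE), adjusted p 1.09e-07). Cd48 (-1.66), Etv6 (-1.58), Hoxa9 (-1.16) and Meis1 (-0.55), the last 3 transcription factors of stem cells, were lower. Slamf1, the antigen CD150 used to tell stem cells and some MEP apart, was higher, at 13.9, 18.8 and 26.2 CPM in MEP and 0.761, 1.42 and 2.62 CPM in CMP (log2 fold change 3.72 ± 0.23 (SE), adjusted p 2.25e-07). Ctnnal1 (0.65) and Mllt3 (2.28), a subunit of the super elongation complex, were the other members higher in MEP. In the list of fetal programme genes 5 of 13 were higher and 4 lower, beside 14.4% and 16.4% over all genes. Hmga2, a chromatin protein of fetal stem cells, was at 29.2, 34.1 and 46.1 CPM in MEP and 153, 201 and 227 CPM in CMP, without overlap (log2 fold change -2.52 ± 0.11 (SE), adjusted p 2.11e-08), Arid3a was lower (-2.22), and H19 was higher (2.51) with overlap.

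Granule genes of neutrophils were lower in MEP, 19 of 21 primary granule members tested being lower and none higher (median -2.33). Mpo (ENSMUSG00000009350; GRCm38 chromosome 11, 87793581 to 87804413, plus strand), myeloperoxidase, was at 68.5, 127 and 419 CPM in MEP and 3311, 3582 and 4218 CPM in CMP, without overlap (log2 fold change -4.68 ± 0.42 (SE), adjusted p 0.000167). Prtn3, proteinase 3, was at 6.25, 8.16 and 13.7 CPM in MEP and 270.5, 334 and 387 CPM in CMP, lower in 6 of 6 pairs (log2 fold change -5.29 ± 0.15 (SE), adjusted p 5.63e-10). Ctsg, cathepsin G, was at 3.38, 8.84 and 28.8 CPM in MEP and 339.6, 374 and 444 CPM in CMP (log2 fold change -5.29 ± 0.35 (SE), adjusted p 9.63e-06). Ctsc (-2.01), which activates these proteases, Cst7 (-2.66), a cystatin, and Lyz2 (-3.97), lysozyme, were lower as well. Elane, given above, and Gstm1 (0.22) were the members that did not pass. Of the later granule genes 4 of 5 tested were lower, among them Cybb (-4.31), the NADPH oxidase subunit, and Hp, haptoglobin (-4.99). S100a8 (-0.04) did not pass.

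The promoters of Prtn3 and Mpo are shown because they hold the PU.1 motif GAGGAAGT, in capitals, in the same windows as above.
Prtn3 (chr10:79879417-79879716, plus strand): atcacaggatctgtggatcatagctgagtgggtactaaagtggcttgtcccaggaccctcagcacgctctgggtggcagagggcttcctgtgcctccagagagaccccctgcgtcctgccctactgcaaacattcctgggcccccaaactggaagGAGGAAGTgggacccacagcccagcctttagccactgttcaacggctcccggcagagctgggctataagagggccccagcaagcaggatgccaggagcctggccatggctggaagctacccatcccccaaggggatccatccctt
Mpo (chr11:87793534-87793833, plus strand): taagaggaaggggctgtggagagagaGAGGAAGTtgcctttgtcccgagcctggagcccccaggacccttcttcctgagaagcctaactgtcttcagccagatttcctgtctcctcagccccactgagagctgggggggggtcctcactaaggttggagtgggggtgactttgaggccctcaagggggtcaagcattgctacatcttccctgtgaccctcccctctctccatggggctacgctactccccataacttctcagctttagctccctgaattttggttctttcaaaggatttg
GAGGAAGT, on either strand, lay in 8.42% of the promoters of genes at least 4-fold lower in MEP, in 0 of 194 promoters of genes at least 4-fold higher, in 3.25% of those of all genes tested and in 3.2% of all promoters. The C/EBP motif TTGCNNAA lay in 15.8% of the first set, 11.9% of the second, 8.12% of tested and 10.8% of all promoters. CCACACCC, a motif of KLF1, lay in 3.3, 5.15, 3.59 and 3.56% of these sets, and CAGCTG, an E-box, in 17.2, 20.6, 13.9 and 16.3%. The 6 motifs were searched after the fold changes were known.

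Transcription factors of granulocytes and monocytes were lower for 13 of 17 members tested and higher for none (median -1.61). Spi1, which encodes PU.1, was at 10.2, 14.8 and 23.1 CPM in MEP and 110.3, 137 and 179.6 CPM in CMP, without overlap (log2 fold change -3.25 ± 0.21 (SE), adjusted p 6e-07). Irf8, a factor of monocytes and dendritic cells, was at 7.58, 15.3 and 23.1 CPM in MEP and 151, 174 and 202 CPM in CMP (log2 fold change -3.64 ± 0.19 (SE), adjusted p 1.09e-07). Irf5 (-3.13), Cebpb (-2.37), Cebpd (-3.84), Runx2 (-2.82) and Runx1 (-1.61) were lower too. Cebpg did not pass (0.12).

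Receptors by which myeloid cells sense growth factors were lower in 16 of 20 members tested, and 1, Ifngr1 (0.27), was higher (median -1.96). Csf3r, the receptor for granulocyte colony-stimulating factor, was at 1.93, 2.39 and 3.60 CPM in MEP and 54.5, 72.9 and 98.3 CPM in CMP, without overlap (log2 fold change -4.89 ± 0.17 (SE), adjusted p 2.56e-09). Csf1r, the macrophage colony-stimulating factor receptor, was at 3.90, 9.12 and 18.0 CPM in MEP and 175, 246 and 328 CPM in CMP (log2 fold change -4.81 ± 0.22 (SE), adjusted p 5.57e-08). Csf2rb (-4.54), the beta chain shared by 3 cytokine receptors, Il6ra (-4.39), the chemokine receptor Ccr2 (-4.55) and the tumour necrosis factor receptor Tnfrsf1a (-3.06) were lower. Flt3, the receptor of early lymphoid and myeloid progenitors, was lower by less (log2 fold change -1.42 ± 0.22 (SE), adjusted p 0.000681). Tfec, Csf2rb2 and Cxcr2 were listed for CMP only. Tfec, a factor of the MITF family, was at 61.8 to 84.5 CPM (median 67.0) there. These 3 were chosen after their values were seen.

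Among monocyte genes 14 of 17 tested were lower and none higher (median -3.19). F13a1, the A subunit of coagulation factor XIII, was at 3.47, 8.38 and 18.0 CPM in MEP and 178, 402 and 514 CPM in CMP, without overlap (log2 fold change -5.54 ± 0.18 (SE), adjusted p 2.2e-09). Ms4a6c (-5.52), Cx3cr1 (-4.33), the fractalkine receptor, Tyrobp (-4.05), a signalling adaptor, and Ly6c2 (-3.19) were lower. Other large falls towards MEP outside the lists included Mtus1 (log2 fold change -5.59 ± 0.28 (SE), adjusted p 1.49e-07), the lectins Clec7a (-5.45) and Clec5a (-5.04), Anxa3 (-5.06), Rab44 (-5.12), Gpr141 (-5.19), Glipr1 (-4.78) and the chemokine Ccl9 (-4.91). Basophil and mast cell genes were lower for 7 of 9 members tested and higher for none. Fcer1g, the gamma chain of Fc receptors, was at 6.84, 8.27 and 9.75 CPM in MEP and 105, 117 and 162 CPM in CMP, without overlap (log2 fold change -3.93 ± 0.12 (SE), adjusted p 1.94e-09), and Cpa3, the mast cell carboxypeptidase, at 5.25, 8.94 and 16.6 CPM in MEP and 98.7, 120.3 and 154 CPM in CMP (log2 fold change -3.76 ± 0.24 (SE), adjusted p 6.21e-07). Of 3 eosinophil genes tested, Siglecf (-2.51) was lower and Cd24a higher, at 548, 809 and 1588 CPM in MEP and 90.7, 147 and 215 CPM in CMP (log2 fold change 2.60 ± 0.12 (SE), adjusted p 2.27e-08). Cd24a is also a marker of B cells and erythroblasts.

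The plot of the lists, which leaves out the sorting antigens (median -3.41), places red cell membrane genes at the top and monocyte and later granule genes (median -3.53) at the bottom.

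**Figure D3:**
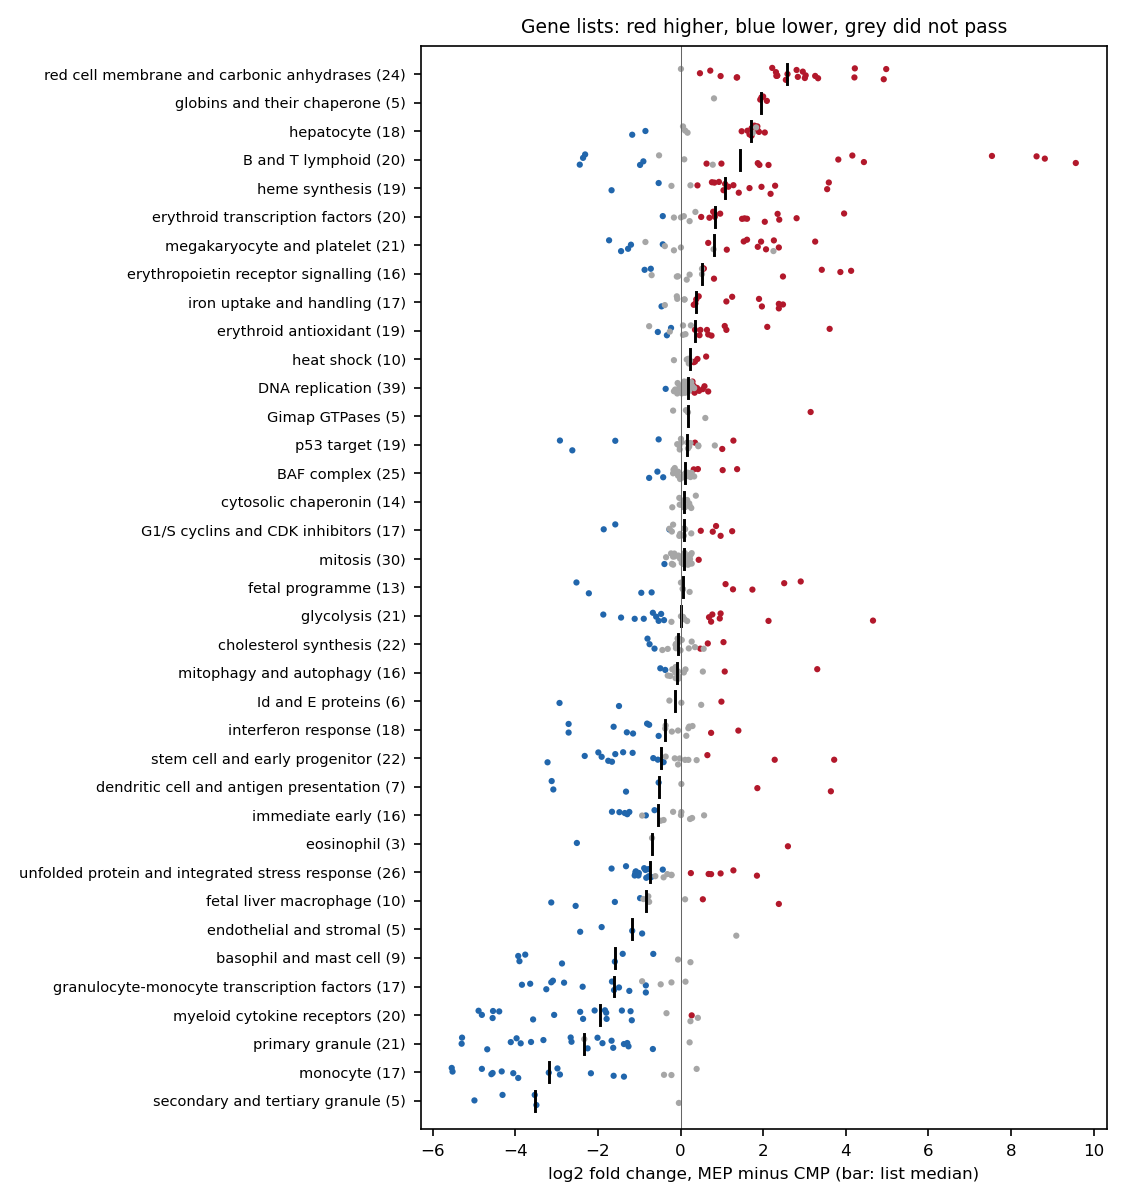
Each point is a gene tested, placed by its log2 fold change (MEP minus CMP) in the row of its list, with the number of members tested in brackets and a black bar at the list median; red genes were higher in MEP, blue lower, and grey did not pass. Red cell membrane genes have the highest median (2.57) and, of the lists plotted, monocyte (-3.19) and secondary and tertiary granule (-3.53) genes have the lowest; the sorting antigens are not plotted.

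Genes of early B cells were among the largest differences in favour of MEP. Igll1 (ENSMUSG00000075370; GRCm38 chromosome 16, 16860671 to 16863985, minus strand), the surrogate light chain of the pre-B cell receptor, was at 54.6, 264 and 458 CPM in MEP and 0, 0.261 and 0.613 CPM in CMP, with 3539 reads over the MEP and 7 over the CMP libraries (log2 fold change 9.57 ± 0.37 (SE), adjusted p 3.3e-08). Cd79a, the signalling chain of the B cell receptor, was at 23.6, 79.1 and 154 CPM in MEP and 0, 0.492 and 0.613 CPM in CMP, present in all 6 MEP libraries and nearly absent from CMP (log2 fold change 7.54 ± 0.27 (SE), adjusted p 2.99e-09). Il7r, the interleukin 7 receptor, was at 29.6, 65.5 and 131 CPM in MEP and 3.27, 4.46 and 6.91 CPM in CMP, and here CMP had reads in every library (log2 fold change 3.82 ± 0.18 (SE), adjusted p 2.48e-08). The B cell factor Pax5 had 197 reads in MEP and none in CMP, at least 88.1-fold higher against a floor of 3 reads over the CMP group. Lef1, a transcription factor of early lymphocytes, had 521 reads against 2, a ratio of 349 (exact 95% counting interval 96.2 to 2890). Ebf1 (4.44), the factor that specifies B cells, Blnk (4.16), an adaptor below the pre-B cell receptor, Ets1 (4.54) and Slamf6 (4.76) were higher as well.

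In the lymphoid list 12 of 20 members tested were higher and 5 lower (median 1.43), beside 14.4% and 16.4% over all genes. Among the 5 were Cd27 (-2.44), Il12rb2 (-2.31), Satb1 (-0.98) and Mef2c (-0.9). Vpreb1, the other surrogate light chain gene, was listed for MEP only, at 21.02 to 158 CPM (median 75.5). Rag1, a subunit of the antigen receptor recombinase, was likewise at 20.46 to 157 CPM (median 45.5), and Mzb1 and Vpreb3 at 24.9 to 152 CPM (median 97.6) and 13.0 to 84.3 CPM (median 50.5). These 4, Blnk, Ebf1, Pax5 and Ets1 were chosen after their values were seen. Igll1, Cd79a and Il7r kept their calls in every alternative run, whereas Pax5, Lef1, Ebf1, Blnk, Ighm and Rag2 did not pass with spike-in content in the model. Rag2 was higher (log2 fold change 1.91 ± 0.47 (SE), adjusted p 0.0172) with overlap but not without replicate 1, and Cd79b did not pass (log2 fold change 0.78 ± 0.43 (SE), adjusted p 0.231). Summed over the list, lymphoid genes took 989.3 to 3166 CPM in MEP and 1099 to 1239 in CMP. The lineage antibodies of the sort include one against B220, an antigen of B cells. Whether B cells or MEP held this RNA was not tested.

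B cell and late erythroid RNA in the MEP gate differed between the pairs titled M32 (1, 3, 4 and 7) and the 2 pairs compared of those titled M33 (9 and 10). Igll1 in MEP was at 199 to 458 CPM in M32 and 54.6 to 78.7 in M33. Cd79a was at 72.0 to 154 CPM in M32 and 23.6 to 31.3 in M33. Hbb-bs was at 2120 to 4550 CPM in M32 and 388 to 403 in M33, and Alas2 at 49.5 to 165 CPM in M32 and 11.4 to 13.9 in M33. None of these ranges overlapped between these 2 sets of pairs. The genes were picked with results of these data known, and the share of all genes without such overlap was not counted. Sets of so few libraries can also separate by chance. The left-out replicate 8, also M33, did not fall with pairs 9 and 10: in the scaling of all 14 libraries its MEP library held 476 CPM of Igll1, 245 of Cd79a and 5340 of Hbb-bs, more than any other MEP library, and 144 of Alas2 against 10.7 to 154 in the others. Among the heterozygous M33 pairs, the low values of these genes were those of 9 and 10. Replicate 8 stood apart in both gates, as given above, and whether the low values go with the title series was not tested. Gata1 was at 104 to 198 CPM in M32 and 180 to 181 in M33, and Car1 at 127 to 212 CPM in M32 and 223 to 260 in M33. In CMP, Hbb-bs was at 128 to 1440 CPM in M32 and 156 to 194 in M33. The labels do not say what the series are, and their part in the results was not tested beyond the fits given here.

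In a fit with a term for the series, added after the data were seen, the difference between the gates itself differed for 8 of 11051 genes, all lower in M33 (0.0724%), and 1031 had an unadjusted p under 0.05. With the replicate 8 pair put back, so that M33 had 3 pairs, no gene passed edgeR's test of this term (0 of 11088; 276 at an unadjusted p under 0.05), and the 8 genes had adjusted p of 0.941 to 0.947. The values that follow therefore rest on leaving that pair out. Ighm, the immunoglobulin heavy chain of pre-B cells, was at 326 to 668 CPM in M32 and 96.9 to 118 in M33 in MEP and 51.6 to 74.6 CPM in M32 and 65.1 to 77.9 in M33 in CMP. Its log2 fold change was 2.86 in M32 and 0.59 in M33 (difference -2.28 ± 0.3 (SE), adjusted p 0.0271). Id3, an inhibitor of E proteins, was at 31.7 to 42.4 CPM in M32 and 5.63 to 6.47 in M33 in MEP, and its log2 fold change was 0.76 in M32 and -2.59 in M33 (adjusted p of the difference 0.0153). Prg2, an eosinophil granule protein, changed from 0.35 to -3.04 (adjusted p 0.023), with 1.399 to 69.6 CPM over the MEP libraries. Anxa1 (-1.44 and -3.78), Cd53 (-1.65 and -3.29), Lsp1 (-0.16 and -2.01), Tpm4 (0.24 and -1.53) and Tbc1d10c (0.44 and -1.38) were the others, given as M32 and M33. The M32 pairs alone gave 940 genes higher and 1254 lower, and the 2 M33 pairs alone 1371 and 1698.

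**Figure D4:**
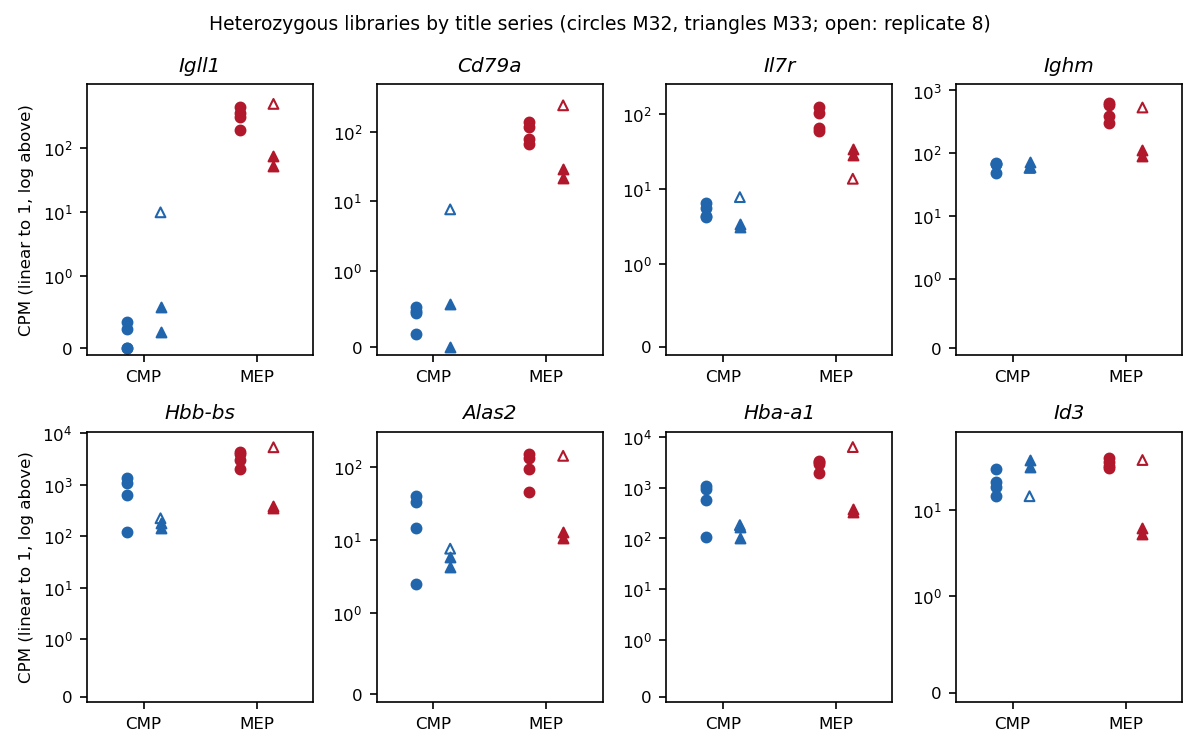
CPM (linear to 1, log above) in heterozygous CMP (blue) and MEP (red) libraries, split by title series (circles M32, 4 pairs; filled triangles M33, pairs 9 and 10; open triangles M33, the left-out replicate 8), in the scaling of all 14 libraries. In MEP the 8 genes are each lower in pairs 9 and 10 than in every M32 library, while replicate 8 is the highest for Igll1, Cd79a, Hbb-bs and Hba-a1, within the M32 range for Ighm, Alas2 and Id3, and the lowest for Il7r (13.5 CPM). The 8 genes were picked with results of these data known, and the share of all genes split this way was not counted.

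Genes of other liver cells were looked at for what the gates could hold. Hepatocyte genes were higher in MEP for 11 of 18 members tested and lower for 2 (median 1.71), yet no member was free of overlap. Their sum ran from 52.98 to 5375 CPM in MEP and from 63.11 to 2085 in CMP. Alb, albumin, was at 10.3, 349 and 966 CPM in MEP and 5.36, 69.5 and 682 CPM in CMP and did not pass (log2 fold change 1.83 ± 0.73 (SE), adjusted p 0.124). Apob (1.87), Rbp4 (1.62), Apoa2 (1.72) and Serpina1b (1.71), secreted by hepatocytes, passed, but not with spike-in content in the model. Macrophage genes gave 2 higher, Slc40a1 and Apoe (0.54), and 4 lower of 10 tested, among them Cd68 (-2.54) and Adgre1 (-3.13), which encodes F4/80. The complement gene C1qb, a defining gene of tissue macrophages, had at most 4.33 CPM in MEP and 4.52 in CMP. Endothelial and stromal genes were lower for 4 of 5 tested, led by Pdgfrb (-2.43) and Tie1 (-1.91). Dendritic cell and antigen presentation genes were higher for 2 of 7, Zbtb46 (3.63) and H2-Ab1 (1.86), and lower for 4, among them H2-DMa (-3.12) and Ctsh (-3.08). Over all genes 14.4% were higher and 16.4% lower. The part of the other liver cells in other results was not tested.

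Cell cycle genes differed by small amounts. Of 39 DNA replication genes 12 were higher and 1 lower (median 0.19), among them Rrm2 (log2 fold change 0.67 ± 0.09 (SE), adjusted p 0.000106), a subunit of ribonucleotide reductase, Orc1 (0.58), Cdc6 (0.54) and Dut (0.40). Of 30 mitosis genes Ccna2 (0.44) was higher and Aurkb (-0.39) lower. Over all genes 14.4% were higher and 16.4% lower. Of 17 regulators of the G1 to S transition 5 were higher and 3 lower. Ccne1, cyclin E1, was at 123, 149.7 and 159.7 CPM in MEP and 57.8, 60.2 and 70.5 CPM in CMP, without overlap (log2 fold change 1.25 ± 0.09 (SE), adjusted p 7.52e-07). Ccnd1, cyclin D1 (-1.86), and the inhibitor Cdkn1a (-1.58) were lower. The inhibitors of E proteins Id1 (-2.93) and Id2 (-1.49) were lower, and Tcf3, an E protein, higher (0.99). BAF complex subunits passed in 7 of 25 cases, 4 higher, Phf10 (1.37), Bcl7a (1.02), Actl6a (0.32) and Smarcd2, and 3 lower, Actb (-0.76), Bcl7c (-0.56) and Brd9 (-0.42). These counts lay near the shares over all genes, 14.4% higher and 16.4% lower. Actl6a kept its call in 12 of 18 alternative fits and Bcl7a in 15 of 18.

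Some metabolic gene families had members that differed in opposite directions. Hexokinase 1, Hk1, was at 132, 212 and 261 CPM in MEP and 30.1, 51.2 and 55.2 CPM in CMP (log2 fold change 2.13 ± 0.20 (SE), adjusted p 2e-05), and hexokinase 2, Hk2, was at 15.9, 19.49 and 23.7 CPM in MEP and 42.5, 56.7 and 64.1 CPM in CMP (log2 fold change -1.44 ± 0.14 (SE), adjusted p 1.15e-05), each without overlap. Pkm, the pyruvate kinase of most tissues, was lower (log2 fold change -0.67 ± 0.11 (SE), adjusted p 0.000522) where Pklr was higher. Of 21 glycolysis genes 7 were higher and 9 lower. Antioxidant genes of red cells were higher for 10 of 19 and lower for 3. Gclm (2.10) makes glutathione, Nqo1 (3.61) reduces quinones and Prdx2 (1.07) is the peroxiredoxin of red cells. Optn (log2 fold change 3.31 ± 0.17 (SE), adjusted p 4.62e-08), a mitophagy receptor, and Bnip3l (1.07), which clears mitochondria from reticulocytes, were the 2 of 16 mitophagy and autophagy genes higher, and 2 were lower, Gabarapl1 (-0.49) and Fundc1 (-0.36). Gabarapl1 kept its call in 15 of 18 alternative fits and Fundc1 in 14 of 18. Cholesterol synthesis genes gave 3 higher, led by Lss (1.04), and 3 lower of 22. These counts and those of the mitophagy and autophagy genes lay near the shares over all genes. Those shares were 14.4% higher and 16.4% lower.

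Genes of protein folding in the endoplasmic reticulum were lower. Calr, calreticulin, was at 233, 330.5 and 367 CPM in MEP and 928, 1022 and 1072 CPM in CMP, without overlap (log2 fold change -1.67 ± 0.10 (SE), adjusted p 2.28e-07). Pdia4 (-1.10), Pdia6 (-1.09) and P4hb (-0.77), disulfide isomerases, Hspa5 (-0.85), the main chaperone, and Xbp1 (-1.11), a factor of the unfolded protein response, were lower. In the list, which also holds the integrated stress response, 15 of 26 were lower and 6 higher (median -0.74). The 6 were Asns (log2 fold change 1.85 ± 0.17 (SE), adjusted p 1.69e-05), asparagine synthetase, Sesn2 (1.28), Ppp1r15a (0.97), Ddit3 (0.74), Atf4 (0.25) and the haem-regulated kinase Eif2ak1 (0.68). Immediate early genes were lower for 7 of 16 and higher for none, led by Klf6 (-1.66), Zfp36 (-1.48) and Fos (-1.24). Interferon response genes were lower for 8 of 18 and higher for 2, with Ifitm3 (-2.71) and Gbp3 (-2.71) the largest. Heat shock genes were higher for 4 of 10, among them Hsph1 (0.62), p53 targets higher for 3 and lower for 4 of 19, with Pmaip1 (-2.92) and Perp (-2.62) the largest, and cytosolic chaperonin genes passed in 0 of 14. Gimap4 (3.15), a GTPase of lymphocytes, was the 1 of 5 Gimap genes to pass. These counts stand beside 14.4% higher and 16.4% lower over all genes, and those of the p53 targets lay near these shares.

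Whether the difference between the gates depended on Smarcd2 was tested in 1 model of all 3 genotypes, over 11538 genes. Smarcd2, the targeted gene, was at 86.6, 141 and 123 CPM in WT MEP, 50.6 to 82.1 in HET MEP and 1.54, 1.92, 1.21 and 0.337 in KO MEP. In CMP it was at 90.6, 124 and 134 CPM in WT, 27.5 to 68.3 in HET and 0.612, 1.37, 0.768 and 1.53 in KO, so that in each gate the genotypes did not overlap. MEP against CMP gave 597 genes higher (5.17%) and 876 lower (7.59%) in WT and 1581 higher (13.7%) and 1956 lower (17%) in KO, 1473 (12.8%) and 3537 (30.7%) in all. The WT total was 826 without replicate 2, 874 without replicate 12 and 2461 without replicate 15, which is a KO pair that enters through the shared spread. HET gave 1143 higher (9.91%) and 1545 lower (13.4%) in this model, 2688 in all (23.3%). Of the 3404 genes called in HET, 1352 were called in WT in the same direction, which is 39.7% of the HET calls and 91.8% of the 1473 WT calls, and none was called in the opposite direction. KO gave 2068 in the same direction, 60.8% of the HET calls and 58.5% of the KO calls, and 9 in the opposite direction. No library is shared between genotypes, although the model shares its scaling and spread. The difference in WT against that in HET passed for 0 genes by edgeR, by DESeq2 and by limma, with 136 at an unadjusted p under 0.05 by edgeR. With 3 WT pairs, and a spread shared with the other genotypes, differences can be missed. Recovery of WT against HET differences was not measured, so the 0 calls do not show that WT and HET are alike. Among lineage genes, Gata1 had a log2 fold change of 3.00 in WT and 3.57 in KO, Klf1 4.48 and 5.34, Cd34 -4.58 and -4.46, and Mpo -4.67 and -4.55. None of these passed for KO against HET (adjusted p from 0.28 to 0.878).

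The difference in KO against that in HET passed for 7 genes (0.0607%), 4 more positive (0.0347%) and 3 more negative (0.026%), with 1741 at an unadjusted p under 0.05; DESeq2 called 129 and limma 362, and edgeR 14 without replicate 10 and 4 without replicate 13. Il7r gave 20.49, 18.7, 20.7 and 17.9 CPM in the 4 KO CMP libraries (replicates 6, 11, 13 and 15), all above the 3.23 to 6.80 CPM of HET CMP, and 26.2, 11.9, 13.3 and 4.72 in the KO MEP libraries, all below the 29.2 to 127.7 of HET MEP. The gate difference in KO was -0.64, lower than in HET by 4.42 ± 0.47 (SE; adjusted p 0.000698), and it passed in 13 of 13 fits without 1 replicate number. The left-out HET replicate 8 held 13.5 CPM of Il7r in MEP and 7.68 in CMP, its MEP value lying within the KO range; with it included Il7r still passed (adjusted p 0.0123). In WT the MEP libraries held 90.9, 139 and 33.6 CPM. Ifitm1, an interferon-induced membrane protein, was at 120.3, 176.8, 249.8 and 1871 CPM in KO MEP and at 10.5 to 16.8 in HET MEP. Its log2 fold change, MEP minus CMP, was -2.43 in HET and 0.61 in KO, where it did not pass (edgeR adjusted p 0.137). The value in KO was thus more positive by 3.04 ± 0.41 (SE), with an edgeR adjusted p of 0.00532, but not further from no difference. Ifitm1 was higher in KO CMP too, at 127.8 to 414.3 CPM against 54.6 to 84.2 in HET CMP. Its highest value was that of replicate 15, and it passed without that replicate. Dock10, an activator of small GTPases, differed by -1.66 between the genotypes and was at 15.8 to 22.02 CPM in KO MEP against 34.5 to 75.3 in HET MEP. Trbc2, a T cell receptor constant gene, differed by -2.64, Anxa2 by 1.74 and Slc22a4, an organic cation transporter, by 2.14. Trbc2 did not pass without replicate 3, 4, 6, 7, 13 or 15, Slc22a4 without 4, 6, 7, 11, 13 or 15, and Anxa2 without 11 or 13. With replicate 8 included neither Dock10 nor Anxa2 passed (adjusted p 0.161 each by edgeR). For Anxa2 the difference lay in CMP, with 17.7 to 40.5 CPM in KO and 56.05 to 81.6 in HET.

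Foxd4 also passed, with 269 and 338 CPM in 2 HET CMP libraries and 314 in 1 KO MEP library, and at most 0.386 in all others; no fold change is given for it. KO pairs 13 and 15 belong to another title series, M34, that holds no HET pair. Without them Il7r differed by -3.96 (adjusted p 0.00597) and Ifitm1 by 2.35 (0.00152), Dock10 had an adjusted p of 0.0467, and Anxa2 (0.0515), Trbc2 (0.431) and Slc22a4 (0.309) did not pass. Of the B cell genes named here, only Il7r passed edgeR's test for KO against HET. Ets1 came nearest (difference -3.05, edgeR adjusted p 0.0505), and Ighm differed by -2.91 (edgeR adjusted p 0.104). The DESeq2 and limma results of these genes are not given here. The gate difference of Igll1 was 6.83 in KO, 9.50 in HET and 9.73 in WT (edgeR adjusted p for KO against HET 0.32). That of Blnk was 0.61 in KO, 4.10 in HET and 5.70 in WT (edgeR adjusted p for KO against HET 0.104). KO against WT, which shares the KO libraries with KO against HET, passed for 10 genes (0.0867%), 4 more positive (0.0347%) and 6 more negative (0.052%), among them Il7r (-4.92), Ifitm1 (4.02) and Blnk (-5.09).

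**Figure D5:**
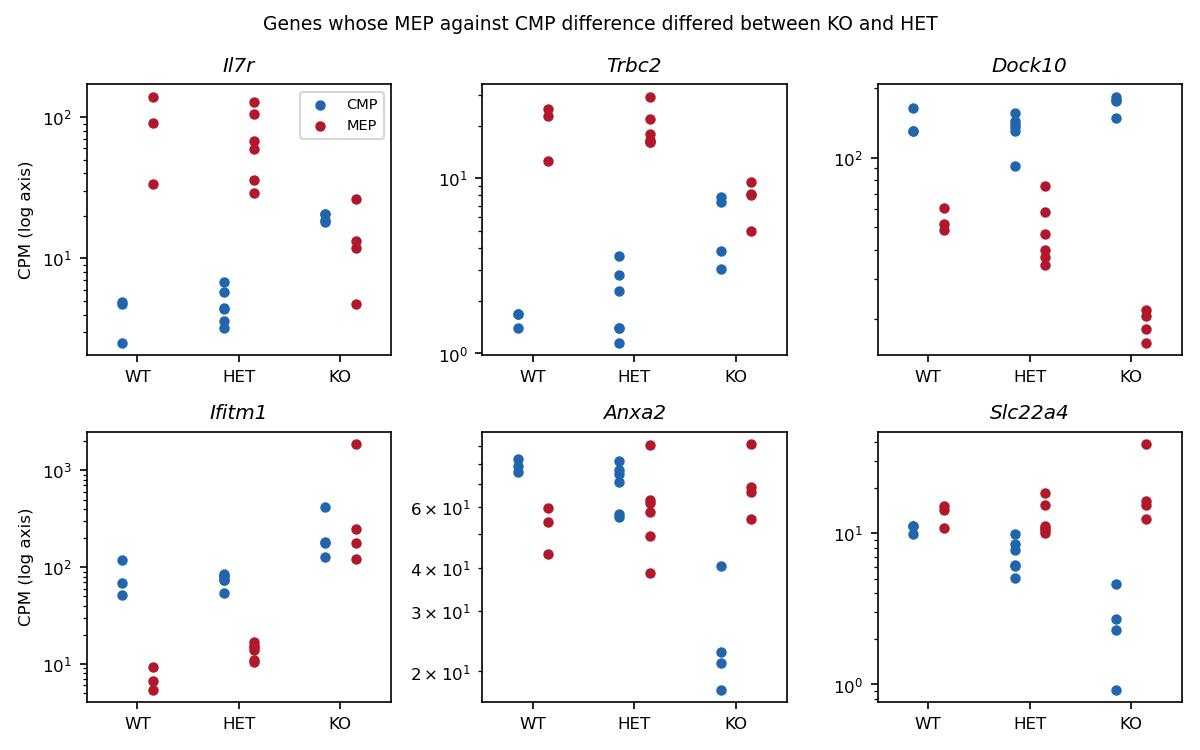
CPM on a log axis in CMP (blue) and MEP (red) libraries of WT (3 pairs), HET (6) and KO (4) fetuses for 6 genes whose gate difference differed between KO and HET. Il7r in the KO CMP libraries (17.94 to 20.7 CPM) lies above every HET CMP library, and Ifitm1 in KO MEP (120.3 to 1871) above every HET MEP library.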

How the data were processed

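RNA of sorted fetal liver cells was copied by the Smart-seq2 method and tagmented with Nextera XT, per the labels' protocols, which keeps no strand and no molecular tags. The authors deposited raw read counts per gene, 1 table per population. Per the submitters' processing notes featureCounts and the builds mm10 and GRCm38 were used. No source used here gives the aligner or any version. The tables hold 13050 (MEP) and 15790 (CMP) gene rows, with smallest row totals of 11 and 7 reads, and 0 columns belong to other samples.

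Gene rows in both tables (11915) were joined and tested with edgeR 4.0.16 in R 4.3.3 (TMM scaling, filterByExpr with a minimum count of 10 and minimum total of 15, robust quasi-likelihood fit, a term per replicate number, Benjamini-Hochberg threshold 0.05). Standard errors are the fold change over the square root of F. The 3 genotypes were compared in 1 model with interaction terms. DESeq2 1.42.0, limma 3.58.1 with sample weights, other scalings and filters, and fits without single replicates were alternatives. On data simulated for heterozygous MEP against CMP, 91.5% of genes changed by 1 on the log2 scale, and 99.5% of those changed by 2, were recovered. Each run changed 200 genes above a minimum level, with the same spread for every gene and no replicate effect. Recovery at the spread of the real libraries was not measured.

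Named were Smarcd2 and sort antigens, the 15 largest rises and falls of 1 sign in all pairs and averaging 3 or more in log2 CPM, up to 4 members per list by smallest p, and genes of the interactions; further list members were named after their values were seen. Members and lists were chosen with earlier results of these data known. Some genes are not reported here.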

Additional observations from a re-analysis of the deposited data

Results flagged for a closer look

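Chance sets a library apart by the gap criterion used here in about 1 in 20 groups, and 7 of 99 groups checked had one. Kit was lowest in the CMP library of replicate 9 (122.8 CPM, next 192), Ccne1 lowest in the MEP library of replicate 4 (122.6 CPM, next 148.2), Pf4 highest in the CMP library of replicate 3 (60.01 CPM, next 20.05) and Rhag highest in the MEP library of replicate 1 (220.4 CPM, next 158.2). The KO MEP library of replicate 15 was highest for 3 genes, Ifitm1 (1871 CPM, next 249.8), Slc22a4 (38.75 CPM, next 16.23) and Foxd4 (313.7 CPM, next 0.386).

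The MEP minus CMP difference differed between KO and HET by edgeR's test of the difference for Il7r (-4.42 on the log2 scale), Trbc2 (-2.64), Dock10 (-1.66), Ifitm1 (3.04), Slc22a4 (2.14) and Anxa2 (1.74). Foxd4 passed the same test (adjusted p 0.000698) on reads from 3 libraries.

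Between title series, M33 minus M32, the difference of the gates was lower for Prg2 (-3.39), Id3 (-3.34), Anxa1 (-2.34), Ighm (-2.28), Lsp1 (-1.85), Tbc1d10c (-1.82), Tpm4 (-1.77) and Cd53 (-1.64). The term for the series was added after the data were seen, and only pairs 9 and 10 of M33 entered it. With the left-out M33 pair, replicate 8, put back, none of the 8 passed edgeR's test (adjusted p 0.941 to 0.947; 0 of 11088 genes, 276 at an unadjusted p under 0.05).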

How the results depend on the processing

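With replicate 8 included, the term for the title series passed for 0 genes by edgeR (8 without it; 276 at an unadjusted p under 0.05), 629 genes were higher and 997 lower in MEP, and the M32 pairs alone gave 940 higher. Leaving out 1 replicate gave 1153 to 1898 higher and 1458 to 2028 lower. For KO against HET, DESeq2 called 129 genes and limma 362, and leaving out 1 replicate gave 4 to 14. WT totals were 2605 by limma, 829 with replicate 8 included and 826 to 2461 without 1 replicate. KO totals were 2010 with replicate 8 included and 2916 to 3552 without 1 replicate. For WT against HET every fit without 1 replicate gave 0. Of alternative fits of the named genes, 3106 kept direction and call, 102 lost the call, 22 gained it and 2 reversed: Cd79b was -0.639 in the M33 pairs alone (adjusted p 0.0308 by edgeR), and Id3 0.748 in the M32 pairs alone (adjusted p 0.0378). The cause was not tested.

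The replicate number pairs the libraries by the rule of the comparison only. Deviations of same-numbered MEP and CMP libraries correlated at 0.096 to 0.393, and 4 of 6 MEP libraries were best matched by their own number. Without the replicate block 1419 genes were higher and 1739 lower, WT had 1321, KO 3838 and KO against HET 10; the globins, Alas2, Pf4, Smarcd2, Slc22a4 for KO against HET, and the named hepatocyte genes did not pass. Depth limits genes with few reads, such as Alpl, Lef1 and Pax5 in CMP.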
